A study of Macaca mulatta with 12 samples.

Results

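Engineered heart tissue and flat monolayers, whose cells carried the same label, were both exposed to hypoxia. The measurement described here is how far their transcriptional responses differed. For each gene it is the change from normoxia to hypoxia in engineered heart tissue (EHT) minus the same change in monolayer, called the difference of responses below. It is not a change between 2 groups but an interaction of culture and oxygen, and it needs all 12 libraries of the series, 3 in each of the groups monolayer normoxia, monolayer hypoxia, EHT normoxia and EHT hypoxia. A positive value means that the response was higher in EHT: the gene rose more there, fell less there, or rose in EHT and fell in monolayer. Of 16745 genes in the deposited table, 12084 were tested, those whose mean over the libraries exceeded the table's minimum by 1 log2 unit or more.

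All libraries came from cells labelled as cardiomyocytes made from induced pluripotent stem cells of the rhesus macaque (Macaca mulatta). The cells had grown either as a monolayer on a flat surface or as EHT, a 3-dimensional tissue cast from the cells, and all 4 groups were kept in RPMI medium with B27 supplement containing insulin. Per the labels, hypoxia was 24 h in an anaerobic pouch and then 24 h after the medium was renewed. The labels give neither the hour of RNA collection nor whether normoxic cells had new medium, so lack of oxygen, recovery and renewed medium cannot be told apart. The labels name no separate differentiations or tissues for the replicates, and the p-values measure only the spread between these samples, which may be technical.

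When oxygen is short, the hypoxia-inducible factors (HIF) escape the prolyl hydroxylases that mark them for destruction, and they switch on genes of glucose uptake, glycolysis, acid export and vessel growth. Several of these targets, among them the hydroxylase EGLN3, feed back on the pathway. A thick tissue also receives oxygen by diffusion through its layers, which is why the same outside oxygen need not mean the same oxygen at the cells of a monolayer and of a tissue.

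Markers of the labelled cell type were low. The summed read share of the 9 cardiomyocyte markers in the table was, for monolayer normoxia, 0.153% ± 0.106 (SD, n = 3), and 0.386% ± 0.0212 in monolayer hypoxia, 0.00716% ± 0.00632 in EHT normoxia and 0.0320% ± 0.0270 in EHT hypoxia. The 10 fibroblast markers took 3.34% to 7.06% of the reads in every library. The 10 epithelial markers took a mean of 0.447% in monolayer normoxia and 0.00124% in EHT normoxia. In these bulk samples, fewer cells of a type and less RNA per cell cannot be told apart. Whether the cultures held the same mix of cells was not tested. Libraries held 4154346 to 11298841 reads, recovered from the deposited values. The third EHT hypoxia library stood apart from the other two of its group, with a standard deviation from the group mean of 0.617 log2 units against 0.185 to 0.396 in the other 11 libraries, 11784 genes with a read, and 20 reads of the cardiac troponin gene TNNT2 against 603 and 998. Monolayer normoxia library 3 had the highest median of the deposited values, 8.75 against 6.98 to 7.81 in the other libraries, and every library was therefore centred on its median over the genes tested.

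The difference of responses passed the test (limma, Benjamini-Hochberg adjusted p under 0.05) for 2956 genes, 24.5% of those tested. The response was higher in EHT for 1248 genes (10.3%) and lower in EHT for 1708 genes (14.1%). Without the third EHT hypoxia library the counts were 1824 and 2247, and 2855 of the 2956 genes were called in the same direction. Centring decides the balance of the directions: in the deposited values as they stand, 1147 genes were higher and 102 lower, and the median difference of responses over all genes moved from -0.08 to 0.62, a shift of 0.70. Values below are relative to that shift, and 64 of the 149 named genes that were called lost the call without centring. Among these were COX5A, BAG3, DDIT3, CPT1A, FHL2 and CACNA1C (adjusted p = 0.147 to 0.643 without centring). Of the 27 gene lists with a median under 0, 17 had a median over 0 without centring, and those medians are given beside the lists described at length.

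The plot of both responses shows how the called genes came to lie off the diagonal: for 2137 of them the response passed its own test in 1 culture and not in the other. Among the 2956 called genes, 810 rose in monolayer without passing the test in EHT, and 625 fell in monolayer without passing it in EHT. A further 310 rose and 392 fell in EHT without passing the test in monolayer. The 2 cultures went opposite ways for 394 genes: 237 rose in monolayer and fell in EHT, and 157 fell in monolayer and rose in EHT. Another 263 genes rose in both cultures, by more in EHT for 76 of them and by less for 187. In the same fit 46.5% of all genes tested passed for hypoxia in monolayer (27.8% rose, 18.6% fell) and 35.5% in EHT (19.5% rose, 16.0% fell). The median size of the response over all genes was 0.59 log2 units in monolayer and 0.48 in EHT.

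**Figure D1:**
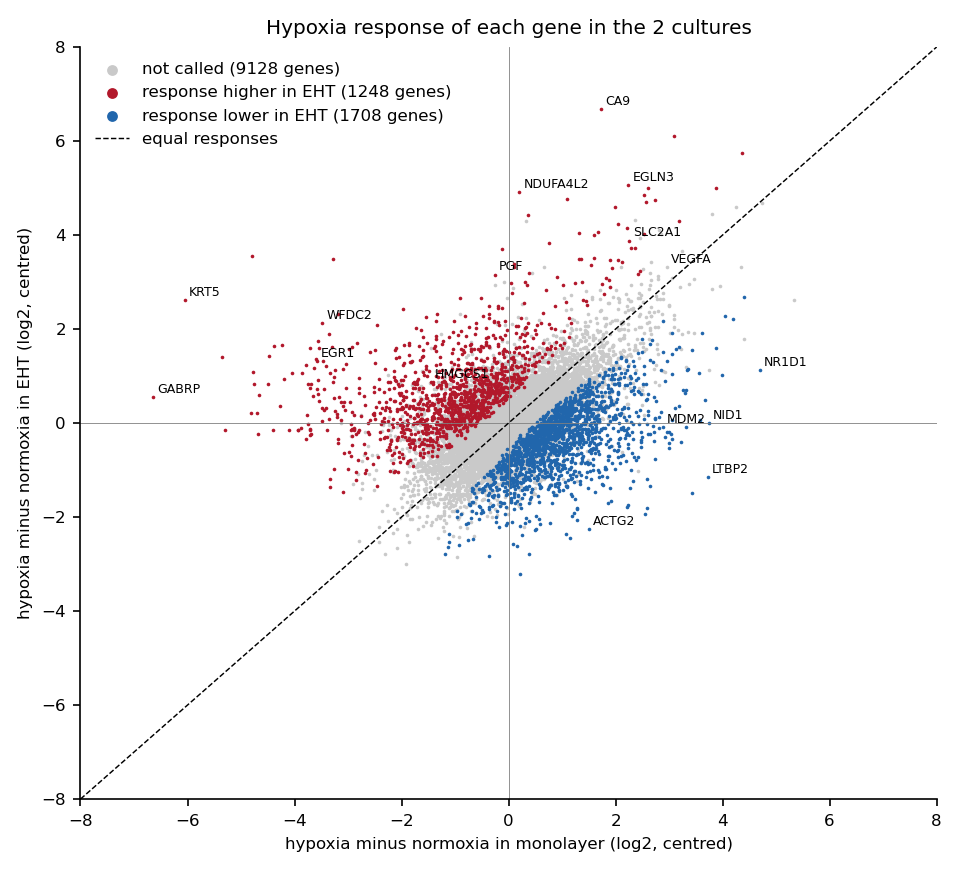
Change from normoxia to hypoxia in monolayer (horizontal axis) and in EHT (vertical axis), in log2 units after centring, for the 12084 genes tested; red genes had a higher and blue genes a lower response in EHT, and the dashed line marks equal responses. CA9 (1.73 in monolayer, 6.68 in EHT) lies far above the line and LTBP2 (3.72 and -1.15) far below it.

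Each called gene was then placed by where the cultures differed. A gene was placed at the hypoxia level if the EHT minus monolayer difference in hypoxia was at least 2 times as large as that in normoxia, at the normoxia level in the reverse case, and at both levels otherwise. By this rule 1222 genes (41.3% of those called) differed mainly in their normoxia level, 978 (33.1%) mainly in their hypoxia level, and 699 (23.6%) at both levels with opposite signs, so that the order of the cultures reversed under hypoxia. Another 57 genes (1.93%) differed at both levels with the same sign. Over all genes tested the shares were 29.8%, 26.5%, 12.6% and 31.1%. The placement uses the same libraries as the test and is a description. In the largest class the wider gap between the cultures was thus the one in normoxia.

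Of 9 tested HIF subunits and oxygen sensors, 1 had a higher response in EHT and none a lower one, against 10.3% and 14.1% of all genes. Without EHT normoxia 3 or EHT hypoxia 3 the counts were 2 and 1. The called gene was EGLN3, a prolyl hydroxylase that marks HIF for destruction. In monolayer EGLN3 lay at 0.40, 0.88 and 0.22 in normoxia and at 2.70, 2.79 and 2.73 in hypoxia, all values in log2 units relative to the library median. In EHT it lay at 0.66, -0.13 and -1.85 in normoxia and at 4.65, 4.89 and 4.30 in hypoxia. Hypoxic EHT was thus above every other library, while the normoxic groups overlapped. EGLN3 rose by 2.24 in monolayer and 5.06 in EHT, a difference of responses of 2.82 ± 0.64 (SE from limma, as in all values below; adjusted p = 0.00720), placed at both levels. HIF1A, the widely expressed oxygen-regulated subunit, had a difference of -0.75 ± 0.29 (adjusted p = 0.0754), and without the third EHT hypoxia library it passed, at -0.96 (adjusted p = 0.0134). EPAS1, which encodes HIF-2 alpha, had 0.50 ± 0.50 (adjusted p = 0.504).

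Glucose uptake and glycolysis genes rose in both cultures, and several with a higher response in EHT started from a lower level there. All 15 tested members rose in monolayer and 14 in EHT, against 27.8% and 19.5% of all genes. Of the 15, 5 had a higher and 2 a lower response in EHT, against 10.3% and 14.1% of all genes. The list median was 0.39 against -0.08 over all genes. The clearest member was SLC2A1, the glucose transporter GLUT1. It lay at 4.32, 4.61 and 5.03 in monolayer normoxia and at 6.84, 7.13 and 6.71 in monolayer hypoxia. In EHT it lay at 2.59, 2.35 and 2.57 in normoxia and reached 6.35, 6.51 and 6.30. No group overlapped another. The gap between the cultures was -2.15 in normoxia and -0.51 in hypoxia, so the difference of responses of 1.64 ± 0.25 (adjusted p = 8.5e-04) was placed at the normoxia level.

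The same placement held for the other 3 glycolysis genes named here with a higher response. The remaining higher call, not named here, was placed at both levels. PFKFB4, whose product sets the level of the allosteric activator of phosphofructokinase, lay at 0.19 to 1.36 in monolayer normoxia and at -1.41 to -0.37 in EHT normoxia, while both hypoxic groups lay between 3.40 and 3.99. Its difference of responses was 2.33 ± 0.42 (adjusted p = 0.00205). The aldolase ALDOC had 2.61 ± 0.47 (adjusted p = 0.00212), with a gap between the cultures of -2.92 in normoxia and -0.32 in hypoxia. Hexokinase 2, HK2, which traps glucose in the cell, had 1.12 ± 0.25 (adjusted p = 0.00674), with gaps of -1.57 and -0.45. PGK1, a later glycolytic enzyme, rose by 1.87 and 2.56 and did not pass the test of the difference (0.69 ± 0.29, adjusted p = 0.102).

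The 2 glycolysis genes with a lower response in EHT were placed at the hypoxia level. HK1, the hexokinase of most resting tissues, lay at 2.99 to 3.50 in the 6 normoxic libraries, at 5.73 to 5.88 in monolayer hypoxia and at 4.49 to 4.68 in EHT hypoxia. The normoxic groups overlapped and the hypoxic groups did not. HK1 rose by 2.53 in monolayer and 1.22 in EHT, a difference of -1.31 ± 0.20 (adjusted p = 7.7e-04), or -0.80 with quantile normalization (adjusted p = 0.0140). PFKM, the muscle form of phosphofructokinase, rose by 1.46 in monolayer and changed by 0.21 in EHT (adjusted p = 0.442), a difference of -1.25 ± 0.28 (adjusted p = 0.00695).

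Among 7 genes of acid and lactate export, CA9 had a higher and BSG a lower response in EHT. Over all genes tested 10.3% were higher and 14.1% lower. CA9 encodes a carbonic anhydrase on the cell surface and is a widely used marker of hypoxia. Its values were -1.05, 0.94 and 1.17 in monolayer normoxia, 2.09, 2.15 and 2.00 in monolayer hypoxia, -2.79, -2.97 and -3.21 in EHT normoxia, and 4.04, 4.11 and 2.93 in EHT hypoxia. The 4 groups did not overlap, with EHT lowest in normoxia and highest in hypoxia. The difference of responses was 4.95 ± 0.66 (adjusted p = 3.6e-04), with a gap of -3.34 in normoxia and 1.61 in hypoxia, and it was placed at the normoxia level. BSG, a chaperone of lactate transporters, had -1.03 ± 0.29 (adjusted p = 0.0207). Its call was lost without monolayer normoxia 3, monolayer hypoxia 1 or monolayer hypoxia 2 (adjusted p = 0.0507 to 0.0523).

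Angiogenic ligands and receptors did not move as one. Of 14 tested, 1 had a higher and 3 a lower response in EHT, against 10.3% and 14.1% of all genes. The list median was -0.36 (0.34 without centring, and -0.22 without EHT hypoxia 3). Leaving out 1 library gave 1 to 2 higher and 2 to 3 lower calls. VEGFA, the main vascular growth factor, rose in both cultures, by 2.96 and 3.32, and its difference of 0.36 ± 0.32 did not pass (adjusted p = 0.449). PGF, the placental growth factor that binds VEGF receptor 1, lay at -3.13 to -1.47 in all 9 libraries of the other 3 groups and at 0.66, 1.59 and 0.30 in EHT hypoxia. Its difference of responses of 3.42 ± 0.65 (adjusted p = 0.00266) was placed at the hypoxia level. NRP2, a co-receptor of VEGF and semaphorins, did the reverse: it lay at 2.25, 2.56 and 2.72 in monolayer normoxia, 3.39, 3.53 and 3.39 in monolayer hypoxia, 2.79, 2.64 and 2.29 in EHT normoxia and 1.17, 1.30 and 1.18 in EHT hypoxia. It rose in monolayer and fell in EHT, a difference of -2.29 ± 0.21 (adjusted p = 4.8e-05), at the hypoxia level. ANGPTL4, an inhibitor of lipoprotein lipase, rose by 3.87 in monolayer and 1.59 in EHT (-2.28 ± 0.54, adjusted p = 0.00885), and its gap between the cultures was 3.55 in normoxia and 1.26 in hypoxia.

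The largest list of hypoxia-inducible genes shows the range of outcomes. Of 30 tested, 25 rose in monolayer and 27 in EHT, 8 had a higher and 1 a lower response in EHT, and the median difference was 0.34. The count of 8 fell to 5 without monolayer normoxia 2, monolayer hypoxia 1 or monolayer hypoxia 3, and reached 10 at most on leaving out 1 library. The count of 1 became 2 to 4 without any 1 of monolayer normoxia 2 and 3, the 3 EHT normoxia libraries and EHT hypoxia 3. Over the 5 hypoxia lists together, 75 members were tested. A higher response in EHT was called for 16 and a lower one for 7, against 10.3% and 14.1% of all genes. In both cultures 49 rose, against 1451 of the 12084 genes tested. The difference of responses of 52 members did not pass the test.

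NDUFA4L2, which encodes a HIF-induced protein that lowers complex I activity, was the member with the clearest hypoxia level. It lay at -2.94, -1.71 and -1.27 in monolayer normoxia, -1.29, -2.07 and -1.97 in monolayer hypoxia, -1.39, -1.31 and -3.21 in EHT normoxia and 3.48, 3.67 and 1.67 in EHT hypoxia. The first 3 groups overlapped and hypoxic EHT lay above them all. Its response was 0.20 in monolayer (adjusted p = 0.821) and 4.91 in EHT, a difference of 4.71 ± 0.86 (adjusted p = 0.00218). C10orf10, a FOXO target, responded by 0.05 in monolayer (adjusted p = 0.913) and rose by 2.98 in EHT (difference 2.93 ± 0.44, adjusted p = 6.4e-04), with EHT higher by 1.88 in normoxia and 4.81 in hypoxia. WSB1, part of a ubiquitin ligase, rose in both cultures and by more in EHT (1.51 ± 0.21, adjusted p = 4.1e-04), and its gap of -1.36 in normoxia became 0.15 in hypoxia. PPFIA4, a liprin, likewise had a gap of -2.29 in normoxia and 0.42 in hypoxia (2.71 ± 0.37, adjusted p = 4.4e-04).

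BHLHE40, a repressor of the circadian clock, was the member with a lower response in EHT, at -1.71 ± 0.46 (adjusted p = 0.0171), and with quantile normalization it did not pass (-1.17, adjusted p = 0.0904). BNIP3, a mitophagy receptor, had 1.48 ± 0.43 (adjusted p = 0.0243). Leaving out any 1 of 5 libraries (monolayer normoxia 2, monolayer hypoxia 1 and 3, EHT normoxia 3, EHT hypoxia 1) took its adjusted p to 0.0502 to 0.0549. Members with no difference past the test included KDM3A, a histone demethylase (0.34 ± 0.22, adjusted p = 0.297), DDIT4, an inhibitor of mTORC1 (0.41 ± 0.39, adjusted p = 0.486), PDK1, which holds pyruvate back from the mitochondria (0.34 ± 0.48, adjusted p = 0.651), and ADM, the vasodilator adrenomedullin (-1.05 ± 0.45, adjusted p = 0.108).

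**Figure D2:**
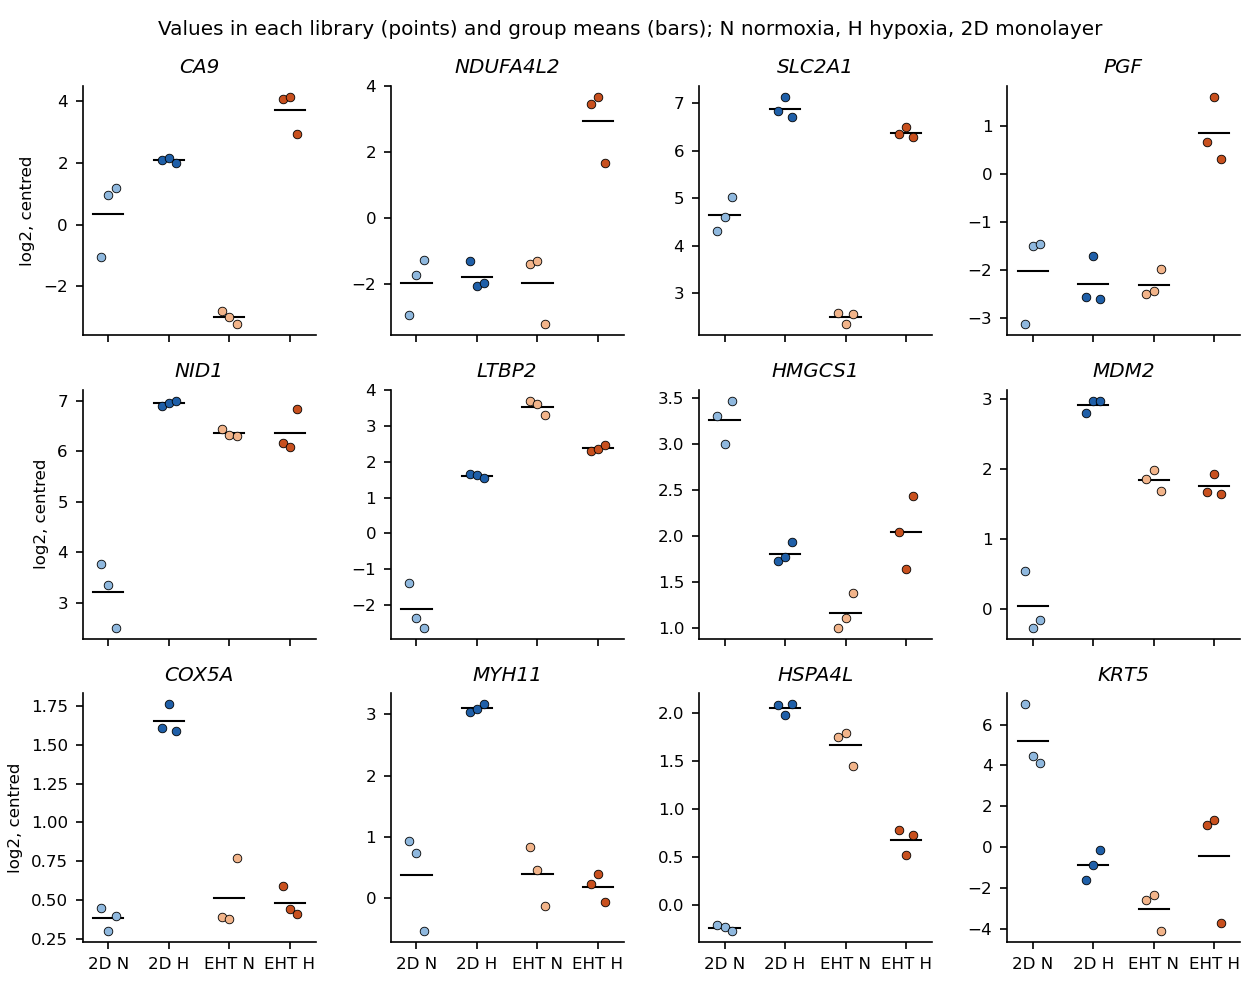
Values of 12 genes in each library (points) and group means (bars) in log2 units relative to the library median, for monolayer (2D, blue) and EHT (orange) in normoxia (N) and hypoxia (H). NDUFA4L2 and PGF stand out in EHT hypoxia, COX5A and MYH11 in monolayer hypoxia, and NID1, MDM2 and KRT5 in monolayer normoxia.

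Nuclear genes of the respiratory chain, whose proteins pass electrons to oxygen in mitochondria, responded lower in EHT. None of 20 tested was higher and 12 were lower, against 10.3% and 14.1% of all genes. The list median was -0.60 (0.10 without centring, where no member passed in either direction). In monolayer 12 rose and none fell, against 27.8% and 18.6% of all genes. In EHT none rose and 6 fell, against 19.5% and 16.0%. Of the 12 called members, 8 were placed at the hypoxia level. COX5A, a subunit of cytochrome c oxidase, lay at 0.30 to 0.77 in both normoxic groups and at 0.41 to 0.59 in EHT hypoxia, but at 1.61, 1.76 and 1.59 in monolayer hypoxia (-1.30 ± 0.20, adjusted p = 8.7e-04). NDUFS1, a core subunit of complex I, lay at 1.12 to 1.58 in the 9 libraries other than EHT hypoxia, where it was 0.21, -0.04 and 0.63 (-1.31 ± 0.23, adjusted p = 0.00154). The pair shows both routes to the same sign: the first rose in monolayer, the second fell in EHT. The count of 12 was 7 without monolayer normoxia 2, monolayer hypoxia 2 or monolayer hypoxia 3.

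Fatty acid oxidation, the main fuel route of the adult heart, gave 2 higher and 2 lower calls among 14 genes. These counts were near the 10.3% higher and 14.1% lower of all genes. CPT1A, which admits long-chain fatty acids to mitochondria, lay at -1.90 to -1.13 in monolayer normoxia, -1.36 to -0.85 in monolayer hypoxia, 1.09 to 2.75 in EHT normoxia and -0.28 to 0.27 in EHT hypoxia. It fell in EHT and its response in monolayer was 0.57 (adjusted p = 0.239), a difference of -2.25 ± 0.53 (adjusted p = 0.00882). The carnitine carrier SLC25A20 had -1.73 ± 0.35 (adjusted p = 0.00400), also through a higher level in normoxic EHT. The 2 higher calls, ETFDH and CPT1B, were both absent without any 1 of monolayer normoxia 2, the 3 monolayer hypoxia libraries and EHT normoxia 1 and 2.

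Cholesterol synthesis had the largest share of calls among the metabolic lists. Of 21 tested genes, 15 had a higher response in EHT and none a lower one, against 10.3% and 14.1% of all genes. The list median was 1.38 against -0.08 over all genes, and 11 of the 15 were placed at the normoxia level. In monolayer 18 fell and 1 rose, against 18.6% and 27.8% of all genes. In EHT 4 rose and 1 fell, against 19.5% and 16.0%. HMGCS1, which makes the substrate of the rate-limiting reductase, lay at 3.30, 3.00 and 3.47 in monolayer normoxia, 1.72, 1.77 and 1.93 in monolayer hypoxia, 1.0, 1.10 and 1.38 in EHT normoxia and 2.04, 1.64 and 2.43 in EHT hypoxia. Normoxic monolayer was above all other libraries, and the 2 hypoxic groups overlapped. The difference of responses was 2.33 ± 0.27 (adjusted p = 1.9e-04). The epoxidase SQLE had 2.06 ± 0.28 (adjusted p = 4.4e-04). Leaving out 1 library gave 10 to 15 higher calls.

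The extracellular matrix went the other way, with many genes that rose in monolayer under hypoxia and stood higher in EHT already in normoxia. Of 23 matrix glycoproteins and proteoglycans, 12 had a lower and 4 a higher response in EHT, against 14.1% and 10.3% of all genes. The list median was -1.14 (-0.44 without centring). In monolayer 15 rose, and in EHT 3, against 27.8% and 19.5% of all genes. Of the 16 called, 7 were placed at the normoxia level, 5 at the hypoxia level and 4 at both. NID1, which links laminin to collagen IV in basement membranes, lay at 3.77, 3.36 and 2.51 in monolayer normoxia and at 6.89, 6.96 and 7.0 in monolayer hypoxia. In EHT it lay at 6.45, 6.32 and 6.31 in normoxia and at 6.17, 6.09 and 6.83 in hypoxia, so that normoxic monolayer lay below all other libraries. The difference of responses was -3.73 ± 0.39 (adjusted p = 9.3e-05). The proteoglycan biglycan, BGN, followed the same course: 0.89, 1.67 and 0.26 in monolayer normoxia and 4.01 to 4.47 in the other 9 libraries (-3.40 ± 0.37, adjusted p = 1.4e-04). The laminin chain LAMA4 lay at 2.62 to 2.77 in monolayer normoxia and at 4.60 to 5.57 elsewhere (-1.92 ± 0.25, adjusted p = 3.2e-04). Decorin, DCN, a proteoglycan that binds collagen fibrils, was opposite: it fell by 1.07 in monolayer and rose by 1.10 in EHT (2.17 ± 0.48, adjusted p = 0.00643, at the hypoxia level). Fibronectin, FN1, had -3.0 ± 0.69 (adjusted p = 0.00761) and with quantile normalization -0.97 (adjusted p = 0.308). The higher calls of this list were 2 in place of 4 without monolayer normoxia 3, monolayer hypoxia 1 or 2, EHT normoxia 2, or EHT hypoxia 1 or 2.

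Collagen chains and the enzymes that cross-link them followed the same direction. Of 16 collagen chains, 7 had a lower and 1 a higher response in EHT, against 14.1% and 10.3% of all genes. The list median was -0.68 (0.02 without centring). Of these chains 13 rose in monolayer and 5 in EHT, against 27.8% and 19.5% of all genes. COL4A1, the basement membrane chain, lay at 5.72, 5.60 and 4.06 in monolayer normoxia, 7.74 to 7.95 in monolayer hypoxia, 6.39 to 7.02 in EHT normoxia and 5.74 to 6.19 in EHT hypoxia. It rose by 2.74 in monolayer and its response in EHT was -0.77 (adjusted p = 0.107), a difference of -3.51 ± 0.50 (adjusted p = 4.9e-04) at both levels. COL8A1 had -2.95 ± 0.38 (adjusted p = 3.0e-04) and COL12A1 -2.30 ± 0.27 (adjusted p = 1.9e-04). COL1A1, the main fibrillar chain, had -1.62 ± 0.46 (adjusted p = 0.0222). Leaving out 1 of 7 libraries (monolayer normoxia 2, monolayer hypoxia 1 and 3, EHT normoxia 1 and 2, EHT hypoxia 1 and 2) took its adjusted p to 0.0516 to 0.0591, and with quantile normalization it was -0.52 (adjusted p = 0.433). The 1 higher call, COL15A1, was lost without any 1 of 10 libraries.

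Of 12 collagen-modifying enzymes, 9 rose in monolayer and 7 in EHT, against 27.8% and 19.5% of all genes. A lower response in EHT was called for 4 and a higher one for 1, against 14.1% and 10.3% of all genes. The 1 higher call was thus near the share over all genes. The list median was -0.76 (-0.06 without centring). LOXL2, a lysyl oxidase that cross-links collagen and a known hypoxia target, lay at 3.61, 4.17 and 3.02 in monolayer normoxia, at 6.90, 7.02 and 6.88 in monolayer hypoxia, at 6.08, 6.06 and 5.49 in EHT normoxia and at 6.64, 6.96 and 7.38 in EHT hypoxia. The hypoxic groups overlapped and the normoxic ones did not. It rose in both cultures, by less in EHT (-2.21 ± 0.39, adjusted p = 0.00170, normoxia level). LOX, another member of that family, rose by 3.95 and 2.92 with no difference past the test (-1.02 ± 0.53, adjusted p = 0.183).

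Matrix proteases and their inhibitors had 8 lower and 2 higher calls among 21 genes, against 14.1% and 10.3% of all genes. The 2 higher calls were thus near the share over all genes. The list median was -0.69 (0.01 without centring). The tissue inhibitors of metalloproteinases were among the lower calls. TIMP3, which stays bound to the matrix, lay at 3.44, 3.18 and 2.46 in monolayer normoxia, 5.26, 5.11 and 5.13 in monolayer hypoxia, 7.68, 7.67 and 7.37 in EHT normoxia and 6.53, 6.52 and 7.58 in EHT hypoxia. EHT was above monolayer in both conditions, and the gap of 4.55 in normoxia narrowed to 1.71 in hypoxia (-2.84 ± 0.41, adjusted p = 5.3e-04). TIMP1 and TIMP2 had -2.42 ± 0.61 (adjusted p = 0.0123) and -2.40 ± 0.34 (adjusted p = 5.0e-04), both at the normoxia level. ADAMTS1, a protease that cuts proteoglycans, fell by 3.18 in monolayer and its response in EHT was -0.42 (adjusted p = 0.339), a difference of 2.75 ± 0.46 (adjusted p = 0.00129). ADAM8, a membrane protease, rose by 2.50 in EHT and had a difference of 2.86 ± 0.66 (adjusted p = 0.00785), with EHT above monolayer by 1.64 in normoxia and 4.50 in hypoxia. On the recovered reads with voom weights it was 3.43 (adjusted p = 0.0607).

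Growth factor genes that act on the matrix fell in the same class. Of 23 TGF-beta ligands, antagonists and targets, 8 had a lower and 1 a higher response in EHT, against 14.1% and 10.3% of all genes. The list median was -0.68 (0.02 without centring). LTBP2, which binds elastic microfibrils, lay at -1.37, -2.35 and -2.62 in monolayer normoxia and at 1.66, 1.63 and 1.53 in monolayer hypoxia. In EHT it lay at 3.69, 3.59 and 3.29 in normoxia and at 2.29, 2.36 and 2.46 in hypoxia. It rose in monolayer and fell in EHT, and the gap between the cultures went from 5.64 to 0.77 (-4.87 ± 0.35, adjusted p = 1.9e-05). LTBP3, which holds latent TGF-beta in the matrix, had -1.91 ± 0.27 (adjusted p = 5.3e-04). ID3, a direct target of BMP signalling, was placed at the hypoxia level: it lay at 2.08 to 3.51 in the other 9 libraries and at 0.10, 0.39 and 0.68 in EHT hypoxia (-2.62 ± 0.34, adjusted p = 3.2e-04).

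Of 9 genes for IGF binding proteins and ligands, 4 had a lower response in EHT and none a higher one, against 14.1% and 10.3% of all genes. The median of these 9 genes was -0.62 (0.08 without centring). Without EHT hypoxia 3, and also without centring, 1 of them was higher. IGFBP7, a secreted matrix-associated binding protein, rose by 2.65 in monolayer and fell by 1.34 in EHT (-3.99 ± 0.55, adjusted p = 4.4e-04), and its gap of 3.70 in normoxia was -0.29 in hypoxia. IGFBP6, which prefers IGF2, had -1.95 ± 0.42 (adjusted p = 0.00599). Among 15 Wnt antagonists and targets the calls were 1 higher and 2 lower, against 10.3% and 14.1% of all genes. The higher one was the secreted antagonist DKK2 (2.62 ± 0.47, adjusted p = 0.00187), and the lower ones were its relative DKK3 (-3.42 ± 0.38, adjusted p = 1.4e-04) and the ligand WNT5A (-2.40 ± 0.46, adjusted p = 0.00298). All 3 were placed at the normoxia level, and without EHT hypoxia 3 there were 5 higher and 4 lower calls. The single higher calls LOXL4 among collagen-modifying enzymes and BMP4 among TGF-beta genes were lost without 8 and 7 of the 12 libraries, each left out on its own.

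**Figure D3:**
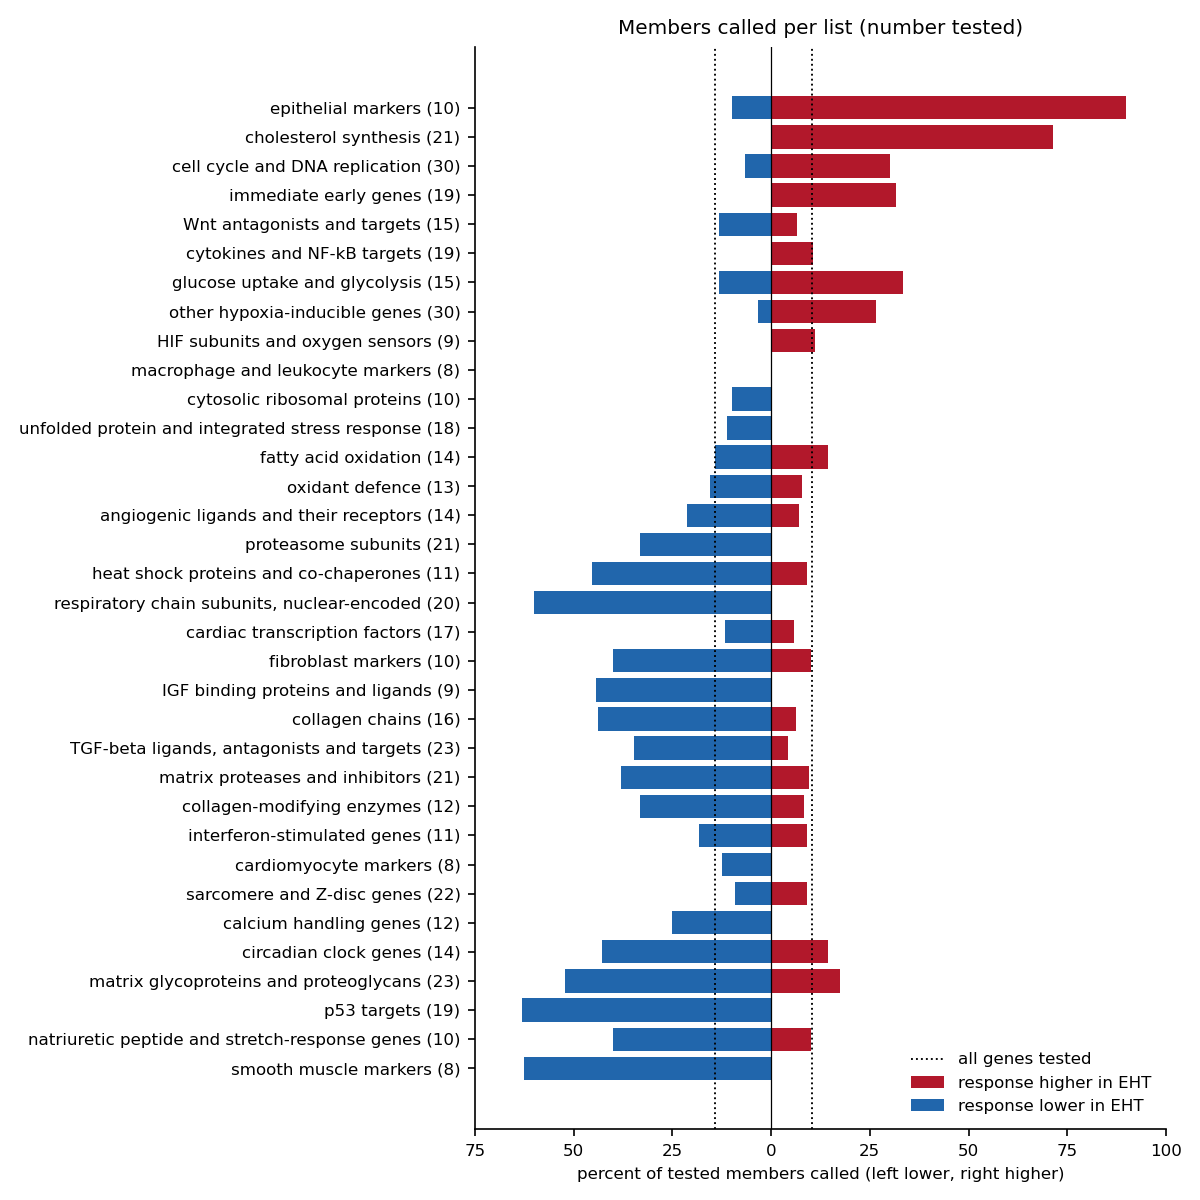
Percent of the tested members of each list with 8 or more tested genes whose hypoxia response was higher (red, right) or lower (blue, left) in EHT, ordered by the list median, with the number tested in parentheses; dotted lines mark 10.3% and 14.1%, the shares over all 12084 genes. Epithelial and cholesterol lists lie at the top and p53, stretch-response and smooth muscle lists at the bottom.

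Targets of p53, the factor that halts the cell cycle after DNA damage and other stress, had the largest share of lower calls among the stress lists. Of 19 tested, 12 had a lower response in EHT and none a higher one, against 14.1% and 10.3% of all genes. The list median was -1.34 (-0.64 without centring, where 4 passed). In monolayer 12 rose and 1 fell, against 27.8% and 18.6% of all genes. In EHT 3 rose and 7 fell, against 19.5% and 16.0%. MDM2, the ligase that degrades p53, lay at 0.54, -0.26 and -0.15 in monolayer normoxia, 2.80, 2.97 and 2.97 in monolayer hypoxia, 1.86, 1.98 and 1.69 in EHT normoxia and 1.67, 1.93 and 1.65 in EHT hypoxia. Both EHT groups overlapped, between the 2 monolayer groups. The difference was -2.97 ± 0.27 (adjusted p = 4.3e-05). RRM2B, a p53-induced subunit of ribonucleotide reductase, had -2.88 ± 0.22 (adjusted p = 1.9e-05) and the RNA-binding protein gene ZMAT3 -3.17 ± 0.30 (adjusted p = 4.8e-05). CDKN1A, the p21 inhibitor of cyclin-dependent kinases, rose by 2.11 in monolayer and fell by 0.71 in EHT (-2.81 ± 0.36, adjusted p = 3.0e-04, normoxia level). Leaving out 1 library gave 11 to 13 lower calls.

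Other stress programmes differed less. In the unfolded protein and integrated stress response, 13 of 18 genes rose in monolayer and 10 in EHT, against 27.8% and 19.5% of all genes. A lower response in EHT was called for 2, near the 14.1% of all genes called lower. DDIT3, the stress factor CHOP, rose in both and by less in EHT (4.04 and 2.28, difference -1.76 ± 0.26, adjusted p = 6.6e-04), with EHT higher by 1.70 in normoxia and a gap of -0.06 in hypoxia. The other lower call, PPP1R15A, was lost without any 1 of 7 libraries, and 5 members passed without EHT hypoxia 3. Without EHT hypoxia 1, 1 member was higher. Heat shock proteins had 5 lower and 1 higher call among 11, against 14.1% and 10.3% of all genes. The 1 higher call was thus near the share over all genes. The list median was -0.57 (0.14 without centring). HSPA4L, an HSP110-type chaperone, is described with the opposite responses below, the co-chaperone BAG3 had -1.66 ± 0.20 (adjusted p = 2.1e-04), and the inducible HSPA1B had 2.28 ± 0.32 (adjusted p = 4.8e-04). HSPA1B belongs to a pair of near-identical genes whose reads may be split.

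Of 13 oxidant defence genes, 1 was higher and 2 lower, near the 10.3% and 14.1% of all genes. Without EHT hypoxia 3, 6 were lower. The peroxidase GPX1 fell by 1.10 in EHT and rose by 0.42 in monolayer (-1.53 ± 0.23, adjusted p = 6.9e-04). MT1X, a metal-binding metallothionein, was the higher call. It had 19 reads in monolayer normoxia, 175 in monolayer hypoxia, none in EHT normoxia and 529 in EHT hypoxia, summed over the 3 libraries of each group. With a floor of 3 reads over the group, the log2 ratio in EHT was at least 7.76 and that in monolayer was 3.41. HMOX1, which breaks down haem, rose by 2.46 and 3.93 with no difference past the test (1.48 ± 0.59, adjusted p = 0.0862).

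Immediate early genes, which cells switch on within minutes of a stimulus, had 6 higher and no lower calls among 19. The shares over all genes were 10.3% and 14.1%, and the list median was 0.80. In monolayer 6 fell and 4 rose, against 18.6% and 27.8% of all genes. In EHT 5 rose and none fell, against 19.5% and 16.0%. EGR1, a zinc finger factor, lay at 3.17, 2.56 and 5.92 in monolayer normoxia, 0.03, 0.45 and 0.43 in monolayer hypoxia, 2.18, 2.46 and 1.68 in EHT normoxia and 3.81, 4.37 and 2.06 in EHT hypoxia. It was lowest in hypoxic monolayer, and the other 3 groups overlapped in part. The difference was 4.89 ± 1.02 (adjusted p = 0.00463). JUN (2.19 ± 0.42, adjusted p = 0.00305) and MYC (1.99 ± 0.35, adjusted p = 0.00186) fell in monolayer and rose in EHT. Leaving out 1 library gave 4 to 7 higher calls, and without monolayer normoxia 3 there was 1 lower call.

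Cytokines and NF-kB targets gave 2 higher and no lower calls among 19 genes, near the 10.3% of all genes. CCL20, a chemokine that attracts lymphocytes, lay at -4.10 to -2.21 in the other 9 libraries and at -0.28, 0.41 and -0.07 in EHT hypoxia (3.83 ± 0.54, adjusted p = 4.7e-04, or 7.63 with voom weights). IL6 (1.76 ± 1.07, adjusted p = 0.258) and CXCL8 (0.31 ± 0.65, adjusted p = 0.773) did not pass, and both were above monolayer in every EHT library. The other higher call, TNFAIP6, was lost without any 1 of 11 libraries, and without EHT hypoxia 3 the list had 5 higher calls. Without monolayer normoxia 2, EHT normoxia 3 or EHT hypoxia 1 it had 1 lower call. Among 11 interferon-stimulated genes, 1 was higher and 2 lower, against 10.3% and 14.1% of all genes. Of these calls, MX1 and IFI6 were lost without 8 and 2 of the libraries.

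Clock genes gave more lower than higher calls. Of 14 tested, 6 had a lower and 2 a higher response in EHT, against 14.1% and 10.3% of all genes. The list median was -1.03 (-0.33 without centring). NR1D1, the clock repressor REV-ERB alpha, lay at -2.30, -1.78 and -2.73 in monolayer normoxia, 2.36, 2.69 and 2.21 in monolayer hypoxia, 0.25, 0.84 and -0.15 in EHT normoxia and 1.31, 1.89 and 1.09 in EHT hypoxia. It rose in both, by 4.69 and 1.12, and the gap between the cultures changed from 2.59 to -0.99 (-3.57 ± 0.42, adjusted p = 1.9e-04). Its relative NR1D2 rose in monolayer and fell in EHT (-2.27 ± 0.28, adjusted p = 2.2e-04). RORA, an activator that competes with both for the same sites, had -1.72 ± 0.26 (adjusted p = 7.4e-04). The 2 higher calls, CRY1 and HLF, were lost without 8 and 9 of the 12 libraries, each left out on its own.

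Proteasome subunits, which form the protease that degrades ubiquitin-tagged proteins, had 7 lower and no higher calls among 21. The shares over all genes were 14.1% and 10.3%. The list median was -0.56 (0.14 without centring, where none passed). In EHT 14 fell and in monolayer 8, against 16.0% and 18.6% of all genes. PSMD2, of the regulatory cap, lay at 3.44 to 3.87 in the other 9 libraries and at 2.11, 2.23 and 2.77 in EHT hypoxia (-1.38 ± 0.22, adjusted p = 8.9e-04, or -0.90 with quantile normalization). The number of lower calls was 3 without monolayer hypoxia 2 and 13 without EHT hypoxia 3. Of 10 ribosomal protein genes 1 was called, against 24.5% of all genes. It was RPS19 (-0.75 ± 0.20, adjusted p = 0.0174). It did not pass without monolayer hypoxia 2 (adjusted p = 0.0519), and with quantile normalization it was 0.15 (adjusted p = 0.613).

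Cell cycle and DNA replication genes had 9 higher and 2 lower calls among 30, against 10.3% and 14.1% of all genes. The list median was 1.03. Without EHT hypoxia 3 the counts were 24 and 2 and the median 1.65, with 1824 and 2247 calls over all genes. In monolayer 12 fell and 1 rose, against 18.6% and 27.8% of all genes. The replicative helicase subunit MCM7 lay at 1.79, 1.66 and 2.35 in monolayer normoxia and at -0.17 to 0.11 in monolayer hypoxia, with 0.27 to 0.45 in EHT normoxia and 0.37 to 0.88 in EHT hypoxia (2.17 ± 0.27, adjusted p = 2.6e-04, normoxia level). RRM2, the replicative counterpart of RRM2B, rose by 2.12 in EHT and its response in monolayer was -0.61 (adjusted p = 0.0607), a difference of 2.73 ± 0.35 (adjusted p = 3.0e-04). The sliding clamp PCNA (-1.52 ± 0.29, adjusted p = 0.00260) and the thymidylate synthase TYMS (-1.55 ± 0.26, adjusted p = 0.00125) were the lower calls.

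**Figure D4:**
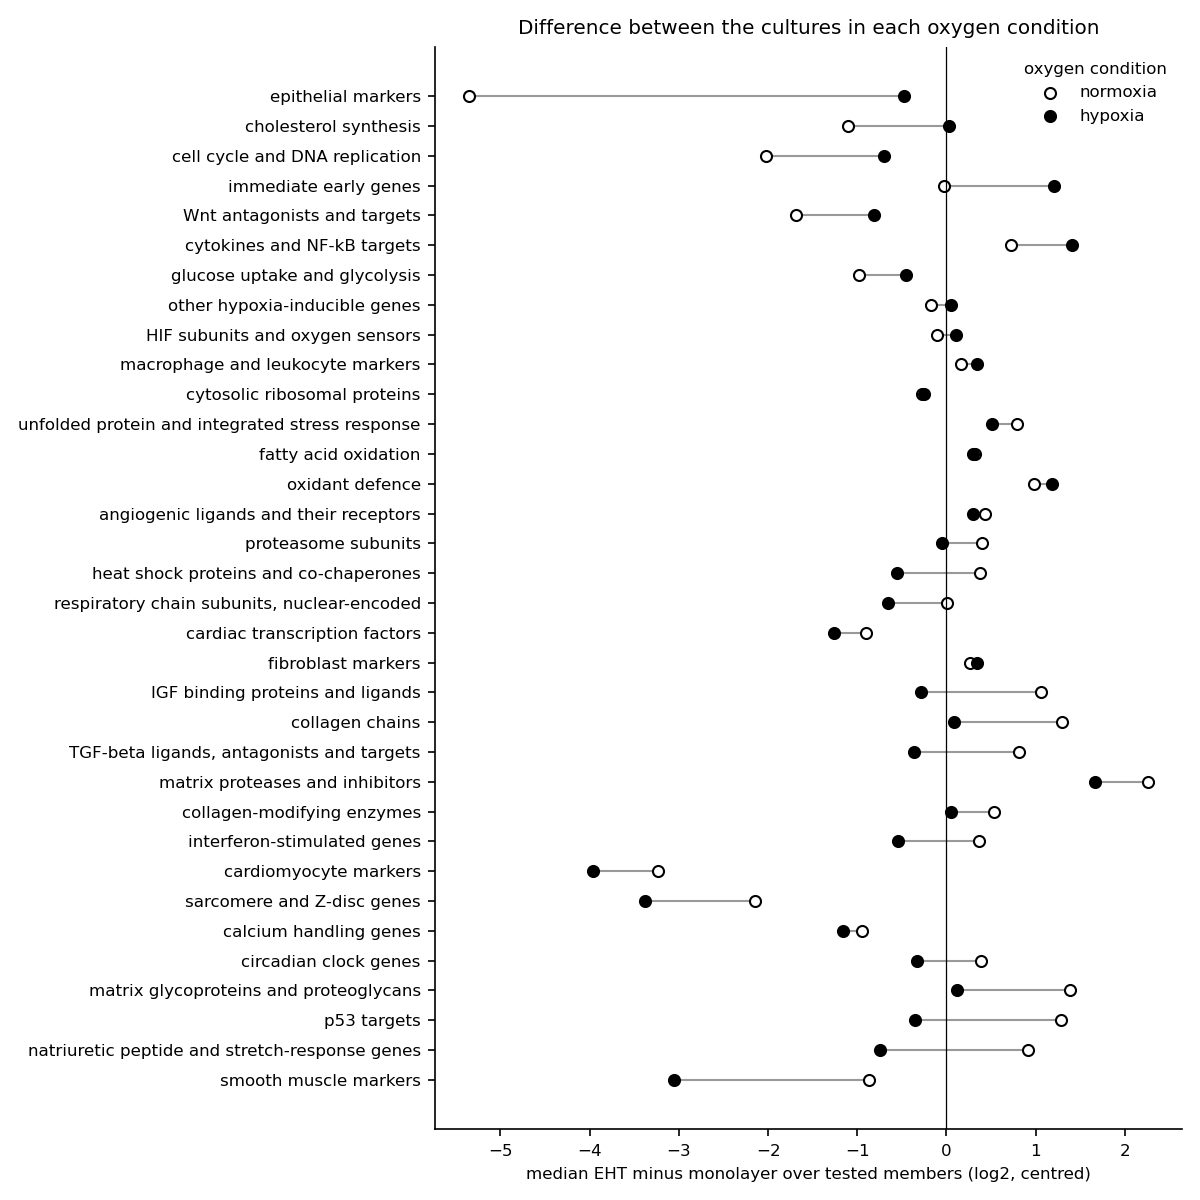
Median EHT minus monolayer difference over the tested members of each list, in log2 units after centring, in normoxia (open circles) and in hypoxia (filled circles); lists are in the order of their median difference of responses. Collagen chains, matrix glycoproteins, collagen-modifying enzymes, p53 targets and IGF genes start at 0.53 to 1.38 in normoxia and lie at -0.35 to 0.12 in hypoxia, matrix proteases go from 2.26 to 1.66, and smooth muscle markers go from -0.87 to -3.05.

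Smooth muscle markers had the lowest median of any list with 8 or more tested genes, -2.29 (-1.59 without centring). Of 8 tested, 5 had a lower response in EHT and none a higher one, against 14.1% and 10.3% of all genes. All 5 were placed at the hypoxia level. Without EHT hypoxia 3, and also without centring, 1 marker was higher. MYH11, the smooth muscle myosin, lay at 0.93, 0.73 and -0.54 in monolayer normoxia, 3.04, 3.09 and 3.16 in monolayer hypoxia, 0.83, 0.46 and -0.13 in EHT normoxia and 0.23, 0.40 and -0.07 in EHT hypoxia. Hypoxic monolayer stood apart and the other 3 groups overlapped (-2.92 ± 0.47, adjusted p = 0.00104). The enteric actin ACTG2 rose by 1.5 in monolayer and fell by 2.25 in EHT (-3.75 ± 0.53, adjusted p = 4.7e-04), and the actin-binding TAGLN had -2.62 ± 0.35 (adjusted p = 3.6e-04). Their summed share of the reads was 0.412% ± 0.103 in monolayer normoxia, 0.697% ± 0.0564 in monolayer hypoxia, 0.275% ± 0.0544 in EHT normoxia and 0.166% ± 0.0266 in EHT hypoxia (SD, n = 3). How far this is a change in cells or in RNA per cell was not tested.

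Heart muscle genes showed large spread and few calls. Of 22 sarcomere and Z-disc genes, 2 were higher and 2 lower, against 10.3% and 14.1% of all genes. The list median of -0.84 became 0.60 with voom weights and 0.44 without EHT hypoxia 3. TNNT2 lay at 3.57, 3.92 and 1.02 in monolayer normoxia, 5.83 to 5.88 in monolayer hypoxia, 0.70, -0.19 and -2.91 in EHT normoxia and 2.29, 2.84 and -1.77 in EHT hypoxia. In 3 of the groups, all but monolayer hypoxia, library 3 lay more than 2 log2 units below the others. The difference of -1.09 ± 1.61 did not pass (adjusted p = 0.670), nor did those of MYH6 (-0.78 ± 2.30, adjusted p = 0.845), ACTC1 (-1.34 ± 2.13, adjusted p = 0.694) and the natriuretic peptide gene NPPA (-2.73 ± 2.55, adjusted p = 0.475). With standard errors of this size a difference of several log2 units was not detectable.

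Of the sarcomere and Z-disc genes that passed, TCAP, the titin cap, had 1.70 ± 0.41 (adjusted p = 0.0101), placed at the hypoxia level. NEXN, an actin-binding Z-disc protein gene, had -2.10 ± 0.47 (adjusted p = 0.00672), and TPM1, a tropomyosin, had -1.89 ± 0.48 (adjusted p = 0.0127) and with quantile normalization -0.82 (adjusted p = 0.307). Of 12 calcium handling genes 3 were lower and none higher, against 14.1% and 10.3% of all genes. Without EHT hypoxia 3 the counts were 5 and 2, and without centring 2 were higher. The calcium store sensor STIM1 rose by 1.02 in monolayer and fell by 0.96 in EHT (-1.98 ± 0.26, adjusted p = 3.2e-04), and the L-type channel gene CACNA1C had -1.36 ± 0.28 (adjusted p = 0.00472). The cardiac factor NKX2-5, the 1 call among 8 cardiomyocyte markers, had -2.87 ± 0.84 (adjusted p = 0.0254). It did not pass without monolayer hypoxia 1, monolayer hypoxia 2 or EHT normoxia 3 (adjusted p = 0.0510 to 0.0591), nor with voom weights (adjusted p = 0.173). Stretch-response genes gave 4 lower and 1 higher call among 10, against 14.1% and 10.3% of all genes. Their median was -1.46 (-0.76 without centring, and -0.86 without EHT hypoxia 3). Among them FHL2, a LIM protein of the sarcomere, had -1.86 ± 0.41 (adjusted p = 0.00655). In the EHT normoxia libraries FHL2 had 1736, 3910 and 2757 reads, NEXN 821, 1811 and 1516, and TPM1 13326, 25905 and 9805. TNNT2 had 155, 163 and 9 there. Which cells the reads of FHL2, NEXN and TPM1 came from was not tested. The higher call, RCAN1, was lost without 4 of the libraries.

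Among called genes with a mean that exceeded the table's minimum by 2 log2 units or more, the 12 largest positive differences included those of the keratin genes KRT5, KRT15 and KRT17, and all 12 were placed at the normoxia level. Of 10 epithelial markers tested, 9 had a higher response in EHT and 1 a lower one, against 10.3% and 14.1% of all genes. The list median was 5.37, or 6.32 with the 2 genes that had no read in 1 group at their bound. The basal keratin KRT5 had 47781, 7997 and 4292 reads in the 3 monolayer normoxia libraries, 32, 87 and 144 in monolayer hypoxia, 9, 19 and 0 in EHT normoxia and 258, 341 and 2 in EHT hypoxia. Normoxic monolayer was far above the rest, and 2 of the 3 hypoxic EHT libraries were above every hypoxic monolayer library. The difference of responses was 8.66 ± 1.59 (adjusted p = 0.00229), from a fall of 6.05 in monolayer and a response of 2.61 in EHT (adjusted p = 0.0903). The hemidesmosome collagen COL17A1 had 8.35 ± 1.47 (adjusted p = 0.00180), KRT17 6.78 ± 1.23 (adjusted p = 0.00212), and TP63, the master factor of stratified epithelia, 5.87 ± 0.75 (adjusted p = 3.0e-04, or 10.64 with voom weights). EPCAM, an adhesion molecule of most epithelia, had 4.39 ± 0.60 (adjusted p = 4.2e-04).

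GABRP and the epithelial factor GRHL2 had no read in EHT normoxia. GABRP had 19612 reads in monolayer normoxia, 52 in monolayer hypoxia and 11 in EHT hypoxia, and GRHL2 had 2635, 11 and 18. Against a floor of 3 reads over the group, the log2 difference of responses was at least 10.53 for GABRP and 10.58 for GRHL2. KRT18, a keratin of simple epithelia, went the other way (-2.50 ± 0.48, adjusted p = 0.00271). The summed share of epithelial markers was 0.186% to 0.922% in monolayer normoxia, 0.0105% to 0.0128% in monolayer hypoxia, 8.2e-04% to 0.00159% in EHT normoxia and 0.00138% to 0.0171% in EHT hypoxia. These reads move with the same group contrast as every gene placed at the normoxia level through a high value in monolayer normoxia, and their part in those results was not tested.

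**Figure D5:**
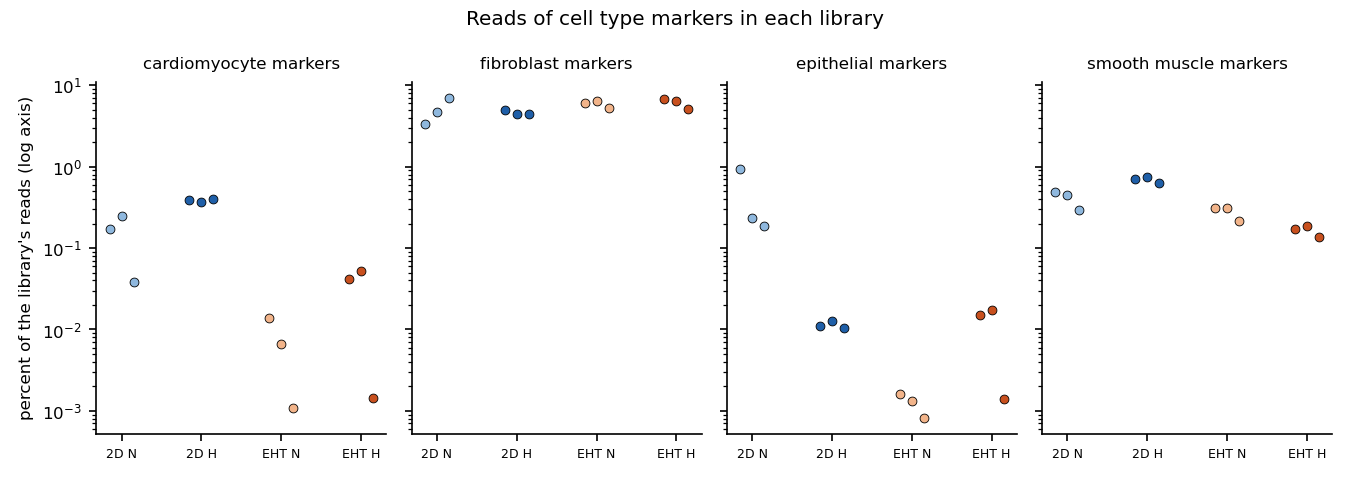
Percent of each library's reads (log axis) taken by 4 lists of cell type markers in monolayer (2D, blue) and EHT (orange) in normoxia (N) and hypoxia (H), 3 libraries a group. Epithelial markers take most in monolayer normoxia, fibroblast markers 3.34% to 7.06% everywhere, and EHT hypoxia library 3 is low for cardiomyocyte and epithelial markers.

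Markers of other cell types were read against the 10.3% of all genes called higher and the 14.1% called lower. Among 6 epicardial and mesothelial markers 3 were higher: MSLN, mesothelin (3.68 ± 0.68, adjusted p = 0.00229), UPK1B (4.24 ± 0.95, adjusted p = 0.00676) and BNC1 (3.74 ± 0.81, adjusted p = 0.00587). With voom weights UPK1B had 6.45 and BNC1 6.12. None of 5 endothelial and none of 8 macrophage and leukocyte markers passed. As higher, 3 endothelial markers passed without EHT hypoxia 3, 2 without centring, and 1 without monolayer normoxia 1 or EHT normoxia 1. In every list here for which limma called none in a direction, voom on the recovered reads also called none in that direction, except for 1 endothelial marker that was higher. At an unadjusted p under 0.05 the same held, except for 2 endothelial markers and 1 p53 target that were higher, and 1 HIF pathway gene and 1 cytokine gene that were lower. Leaving out 1 library or the centring did end some of these zeros, as given with the lists. Of 10 fibroblast markers 4 were lower and 1 higher. S100A4, a calcium-binding protein of motile cells, lay at -1.64 to -1.21 in monolayer normoxia, -0.44 to -0.26 in monolayer hypoxia, 3.42 to 3.89 in EHT normoxia and 2.94 to 3.21 in EHT hypoxia. It rose in monolayer and fell in EHT (-1.70 ± 0.22, adjusted p = 3.3e-04), and EHT stayed above monolayer in both conditions, by 5.12 and 3.42. The hepatic marker AFP, the neural marker MAP2, the pluripotency marker SOX2 and the skeletal muscle marker TNNT3 were the single calls of their lists. MAP2 was lower (-1.06 ± 0.25, adjusted p = 0.00928), AFP had no read in EHT normoxia and an adjusted p of 0.168 with voom weights, and SOX2 and TNNT3 lost the call without 10 and 9 of the 12 libraries, each left out on its own.

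Among the largest negative differences were genes that rose in monolayer and fell in EHT or stayed. TMEM59L had -4.48 ± 0.48 (adjusted p = 1.2e-04), the actin regulator MICAL2 -4.39 ± 0.69 (adjusted p = 9.0e-04) and DPYSL3, a collapsin response mediator, -4.01 ± 0.39 (adjusted p = 6.1e-05). In these 3 the order of the cultures reversed: EHT was higher in normoxia by 1.57, 2.16 and 1.85, and lower in hypoxia by 2.91, 2.23 and 2.16. TMEM59L had few reads, with 21, 29 and 37 in monolayer normoxia and 6, 9 and 2 in EHT hypoxia. KCNMB1, a channel subunit of smooth muscle (-3.99 ± 0.62, adjusted p = 8.5e-04), and KRT7, a simple keratin (-3.66 ± 0.63, adjusted p = 0.00152), were placed at the hypoxia level.

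Genes with the smallest p among those whose responses passed in both cultures with opposite signs included HSPA4L, LTBP2, ACVR1, PRNP and TM7SF3, and these 5 rose in monolayer and fell in EHT. HSPA4L lay at -0.21, -0.23 and -0.27 in monolayer normoxia, 2.08, 1.98 and 2.09 in monolayer hypoxia, 1.75, 1.79 and 1.45 in EHT normoxia and 0.78, 0.52 and 0.73 in EHT hypoxia. The groups did not overlap, and the cultures changed order between the oxygen conditions. It rose by 2.29 in monolayer and fell by 0.99 in EHT, a difference of -3.27 ± 0.19 (adjusted p = 3.5e-06). ACVR1, a BMP receptor kinase, rose by 1.82 and fell by 0.44 (-2.26 ± 0.17, adjusted p = 1.9e-05, hypoxia level). Without centring the ACVR1 difference was -1.56 and did not pass (adjusted p = 0.129). PRNP, the prion protein gene, lay at 1.26 to 1.40 and 2.42 to 2.50 in monolayer and at 3.85 to 4.24 and 2.71 to 2.82 in EHT, so that a gap of 2.64 in normoxia became 0.31 in hypoxia (-2.33 ± 0.17, adjusted p = 1.9e-05). TM7SF3, a membrane protein gene, rose by 1.27 in monolayer and fell by 1.80 in EHT (-3.06 ± 0.24, adjusted p = 2.1e-05), with EHT above monolayer in normoxia and below it in hypoxia.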

How the data were processed

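Total RNA of 12 libraries was sequenced on an Ion Proton instrument, per the labels' protocols. HISAT2, featureCounts and DESeq2 are named in the submitters' processing notes. Not given in the sources used here are versions, genome build and annotation. The authors deposited 1 table of log2 values after DESeq2's variance-stabilising transformation. Its inverse gave whole reads for 100% of the values in each library (tolerance 0.01); reads were used for depth, marker shares and a voom alternative, with no strand or duplicate information.

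Each library was centred on its median over the 12084 genes tested. All 12 libraries were fitted in limma 3.58.1 (R 4.3.3) with 1 mean per group and a mean-variance trend. The p-values were adjusted by Benjamini-Hochberg over all genes tested. The fit was also run on simulated counts with a shared mean profile, a single dispersion and genes altered in EHT hypoxia. That simulation had no outlying library, so it does not bear on the spread seen in these libraries. Low genes are compressed by the transformation, so their differences are understated. Of 16745 symbols, 14848 matched the reference gene list.

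Genes named are, per direction, the 12 largest called differences among genes whose mean exceeded the table's minimum by 2 log2 units, up to 3 called members per list with the smallest p, the 6 opposite responses with the smallest p, and genes listed by name. Members, the 41 lists and the genes were chosen with earlier results of these data known. Alternatives were other scalings, filters, weights, a replicate block and leaving out each library. Some named genes are not reported here.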

Additional observations from a re-analysis of the deposited data

Results flagged for a closer look

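The number of genes whose hypoxia response differed between the cultures, by a test of the difference itself, was 1248 with a higher and 1708 with a lower response in EHT. Single genes marked by the same kind of test included 5 with opposite responses that passed in each culture. The differences of responses were -3.27 for HSPA4L, -4.87 for LTBP2, -2.26 for ACVR1, -2.33 for PRNP and -3.06 for TM7SF3. All 5 kept their direction without the third EHT hypoxia library, with values of -3.31, -4.92, -2.31, -2.33 and -3.21 in the same order. Without centring each difference moved up by the shift of 0.70. Of the 149 named genes that were called, 64 then lost the call, ACVR1 among them (-1.56, adjusted p = 0.129).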

How the results depend on the processing

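Without centring, 102 genes were lower (1147 higher) and 14.5% of the called genes lay at the hypoxia level, against 1708 and 33.1%. Array weights gave 2114 higher and 2639 lower, and leaving out both EHT libraries numbered 3 gave 1900 higher and 2394 lower. Leaving out 1 library gave 868 to 1824 higher and 1220 to 2247 lower, with 30.6% to 37.3% at the hypoxia level. Voom on the recovered reads gave 1431 and 1563, quantile normalization 1474 and 1584, and no filter 954 and 1912. The replicate block gave 1212 and 1675. It ended the call of 3 of the 149 named genes that were called. Of 18 correlations between same-numbered libraries' deviations from their group means, 7 were over 0.1 (range -0.1 to 0.33). Only 1 of 12 libraries correlated best with its own number in each other group, so the numbers were not taken as pairs. That rule asks for a match in every group and cannot show partial sharing. Between EHT normoxia and EHT hypoxia the correlations were 0.04, 0.33 and 0.27 for numbers 1, 2 and 3. RPS19 reversed with quantile normalization, to 0.15 (adjusted p = 0.613). Of those 149 genes, 26 lost the call on leaving out 1 library and 64 without centring. The causes were not tested. Depth limits genes with few reads: 70 called genes had no read in at least 1 group.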
